A study of Mus musculus with 6 samples.

Results

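The mitochondrial ribosomal protein genes were followed in the cortex of Ybx1 conditional knockout (cKO) embryos at E18.5 (embryonic stage in days). They were taken as the rows of the deposited count table whose symbol begins with Mrpl or Mrps followed by a digit, which gave 78 of 17348 genes. By symbol, 49 belong to the large subunit (Mrpl) and 29 to the small subunit (Mrps), and all 78 had enough counts to be tested. mRNA of 3 cKO and 3 control cortices was sequenced, each library being a separate biological replicate according to the series' description. The cKO embryos were Nestin-Cre, Ybx1 fl/fl, in which exons 3 to 8 of Ybx1 are removed. The controls carry the genotype label WT and were littermates, although the study elsewhere gives its controls as Ybx1 fl/fl without Cre. Nestin-Cre acts in neural progenitors and their progeny, so that blood vessel cells, microglia and blood keep Ybx1. Ybx1 encodes an RNA- and DNA-binding protein with a cold shock domain that acts on the translation and stability of many mRNAs.

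Mitochondria keep a small genome of their own, and its few protein-coding genes specify core subunits of the respiratory chain and of ATP synthase. These mRNAs are translated inside the organelle by a dedicated ribosome whose rRNAs come from mitochondrial DNA, while all of its proteins are encoded in the nucleus, made in the cytosol and imported. Part of these proteins descend from the bacterial ribosome and part were added in the course of evolution, and defects in several of them cause inherited disease of brain, heart and muscle.

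No mitochondrial ribosomal protein gene passed the test between cKO and control cortex. As a group they lay slightly lower in cKO, by a median of -0.14 on the log2 scale, and 64 of 78 had a fold change below 0. The medians of both subunits were below 0, at -0.10 for Mrpl and -0.18 for Mrps. That offset depended on which control was included. Control replicate 2 was the highest of the 6 libraries for 66 of the 78 genes, against 33.6% of all genes tested. Control replicate 3 was the lowest for 37, against 3051 of 13570 genes tested. Without control replicate 2 the medians were 0.03 and 0.02, and 49 of 78 genes had a fold change above 0. Without control replicate 3 they were -0.188 and -0.277, and 71 genes lay below 0.

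Short upstream sequences are shown first, because the genes are scattered over 17 chromosomes and share their function rather than their position. RefSeq windows of build GRCm38.p6, running from 250 bases before to 50 bases after the gene start, were found for 69 of the 78 genes. Both strands were searched for a core of the NRF1 motif (CGCANGCG), a core of the ETS motif (CCGGAAG), to which GABP binds, and a core of the YY1 motif (AANATGGCG). These 3 factors are known regulators of nuclear genes for mitochondrial proteins. The NRF1 letters were in 20 of the 69 members' windows against 18.9% of the windows of 10794 tested genes, the ETS letters in 37.7% against 19.1%, and the YY1 letters in 15.9% against 5.58%. A C followed by 4 pyrimidines at the annotated start, the hallmark of the terminal oligopyrimidine mRNAs of the cytosolic ribosome, was at the start of 0 of 69 members, 13 of 57 cytosolic ribosomal protein genes and 3.02% of all windows. With only 22.8% of the cytosolic ribosomal protein genes matching, the annotated starts recover this class poorly, and its absence among the members says little. A match describes letters and is not evidence of binding. The 100 bases before the start are printed for 4 genes, those with the highest and the lowest level in control replicate 2 relative to controls 1 and 3 in each subunit among genes with a window, with any of the 3 motifs in capitals. Mrpl12 lies at chr11:120484537-120484636 (plus strand), Mrpl1 at chr5:96210015-96210114 (plus strand), Mrps26 at chr2:130563657-130563756 (plus strand) and Mrps22 at chr9:98601680-98601779 (minus strand), and each is written in the direction of its gene.
Mrpl12: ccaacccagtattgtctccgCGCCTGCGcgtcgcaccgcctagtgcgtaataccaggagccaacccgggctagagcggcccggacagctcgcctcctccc
Mrpl1: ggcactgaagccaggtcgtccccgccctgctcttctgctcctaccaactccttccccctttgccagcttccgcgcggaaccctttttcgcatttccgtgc
Mrps26: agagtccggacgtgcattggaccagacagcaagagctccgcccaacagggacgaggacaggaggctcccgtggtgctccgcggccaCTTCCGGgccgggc
Mrps22: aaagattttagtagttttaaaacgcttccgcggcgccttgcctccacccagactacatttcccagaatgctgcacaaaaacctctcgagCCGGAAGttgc
The capitals mark an NRF1 core on the reverse strand in Mrpl12, an ETS core on the reverse strand in Mrps26 and an ETS core on the forward strand in Mrps22, while the printed bases of Mrpl1 hold none of the 3 motifs. In the GENCODE M21 annotation Mrpl1 begins earlier, at chr5:96209493. Its printed bases fall inside that annotated gene and describe the RefSeq start only. The GENCODE starts of Mrpl12 (chr11:120484613) and Mrps26 (chr2:130563742) fall within their printed bases. The marked ETS core of Mrps26 lies after that start, inside the annotated gene.

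The libraries were checked through the targeted gene. Ybx1 had 16184, 22152 and 13950 estimated counts in control replicates 1 to 3 and 387, 394 and 390 in the cKO replicates, a log2 fold change of -5.47 (SE 0.164, adjusted p = 6.95e-07 by the edgeR quasi-likelihood test, Benjamini-Hochberg adjusted). Library totals ranged from 15091951 to 16885451 estimated counts, and 3 counts, taken as the detection floor, equalled 0.178 to 0.199 CPM (counts relative to the TMM-scaled library total). Intervals and floors of this kind cover counting error only, and the p-values measure the spread between these 6 samples. The Y-linked genes Eif2s3y, Kdm5d and Ddx3y had at least 714 counts in every control library and at most 1 in any cKO library, so that sex and genotype cannot be told apart. The cortical excitatory neuron markers summed to 2830 to 3411 CPM in control and 2755 to 3064 CPM in cKO libraries, while 5 of 8 choroid plexus and meninges markers, Ttr among them, were too low to be tested. The other 3, Aqp1, Col1a1 and Col1a2, were low but summed higher in every cKO library than in any control. Their sums were 5.455, 6.792 and 6.029 CPM in controls 1 to 3 and 8.481, 8.308 and 7.088 CPM in cKO. Erythroid markers summed to 986.3 to 1351 CPM in control and 1000.0 to 1219 CPM in cKO, and endothelial and microglia markers to 180.9 to 192.9 and 187.8 to 234.4 CPM. Cortical progenitor markers summed to 932.8 to 1040 CPM in control and 961.8 to 986.1 CPM in cKO. Ganglionic eminence and interneuron markers summed to 497.8, 535.9 and 456.6 CPM in controls 1 to 3 and 570.5, 392.4 and 502.5 CPM in the cKO libraries. Hippocampus markers were at 51.5 CPM in control replicate 2 and between 101.6 and 128.3 CPM in the other 5 libraries. The list was not uniform. Zbtb20 was at 13.3 CPM there against 50.1 to 76.6 CPM elsewhere, and Prox1 at 15.8 against 19.2 to 31.0 CPM. Lef1 (3.69 CPM) and Emx2 (18.7 CPM) lay within the range of the other libraries. In bulk tissue, fewer cells of a type and less RNA per cell cannot be told apart.

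The test across all genes called 10 of 13570 genes at an adjusted p under 0.05, or 0.0737%, and 0 of the 78 mitochondrial ribosomal protein genes were among them. DESeq2 called 99 genes, again with 0 members. At an unadjusted p under 0.05, 3 members were lower in cKO and 0 were higher, whereas 3.49% of all genes tested were lower and 3.14% higher at that level. The 3 were Mrpl52, Mrpl23 and Mrps9. Standard errors of the members' log2 fold changes ranged from 0.0993 to 0.318 with a median of 0.157, which is larger than the median fold change of the group. An exact two-sided permutation of 3 against 3 samples cannot give a p under 0.1 for any one gene.

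The direction was uneven although single genes did not pass. Fold changes lay below 0 for 64 of 78 members, which is 82.1%, against 49.4% of all genes tested, whose median was 0.003. In the large subunit 39 of 49 genes were below 0, with a range from -0.59 (Mrpl52) to 0.30 (Mrpl36). In the small subunit 25 of 29 were below 0, with a range from -0.31 (Mrps12) to 0.16 (Mrps28). All 3 cKO libraries lay below all 3 controls for 10 members, 6 of them Mrpl and 4 Mrps, and above them for 1 member, Mrpl49. The same separation was found for 6.93% of all genes in the lower and 7.35% in the higher direction. The other 67 members had overlapping groups.

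Library by library, the subunits moved together. For each gene the log2 CPM of a library was set against the gene's mean over the 6 libraries. The Mrpl genes had median deviations of -0.04, 0.31 and -0.14 in control replicates 1, 2 and 3, and of -0.07, -0.06 and -0.02 in the cKO replicates. The Mrps genes had -0.02, 0.37 and -0.19 in the controls and -0.08, -0.07 and -0.06 in the cKO replicates. In both subunits control replicate 2 was thus the highest library, control replicate 3 the lowest, and the 3 cKO libraries lay between controls 2 and 3. Of the 78 members, 32, 74 and 19 were above their own mean in controls 1, 2 and 3, against 24, 26 and 29 in the cKO libraries. The ganglionic eminence and interneuron markers had the same order of controls, with median deviations of -0.07, 0.27 and -0.20, and 0.21, -0.33 and 0.05 in cKO, and their part in the members' values was not tested.

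**Figure D1:**
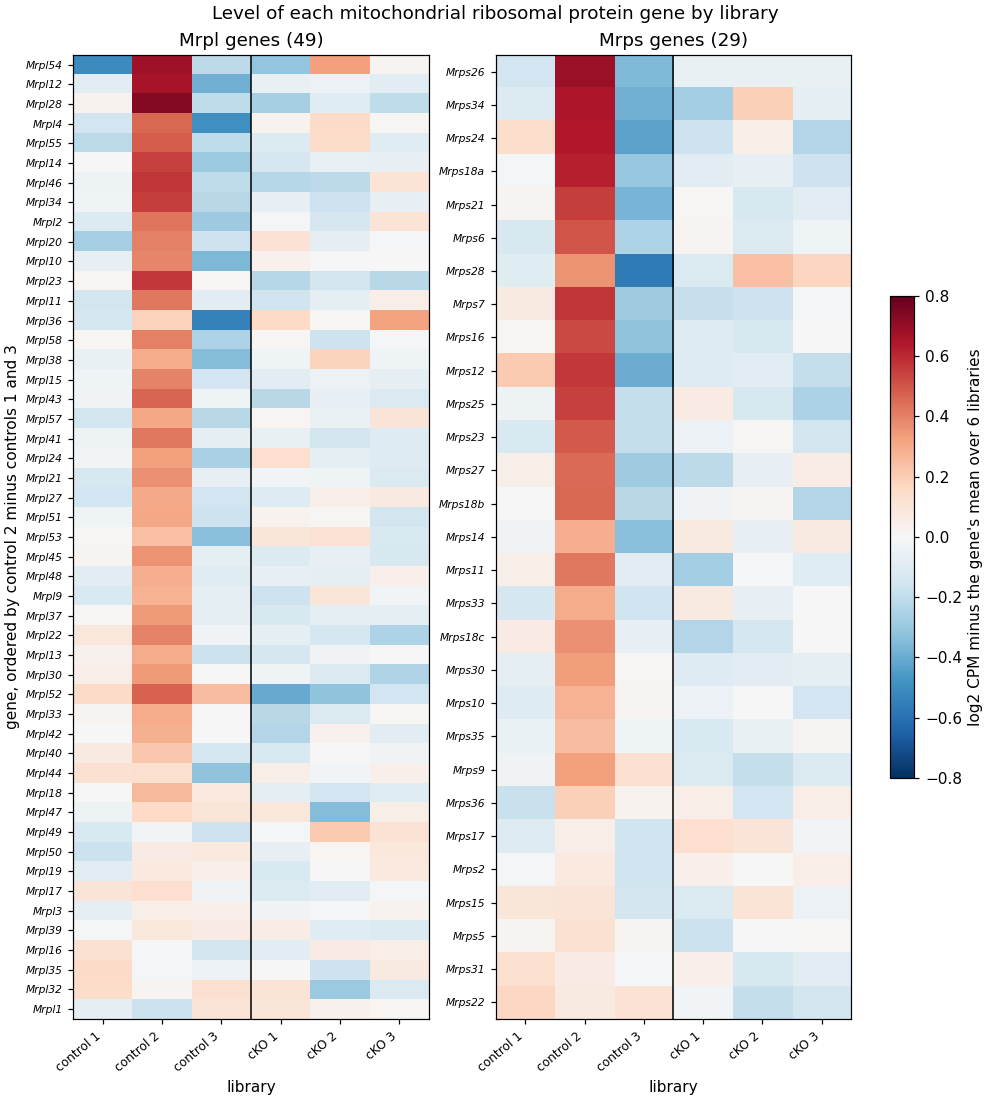
Heat map of the 49 Mrpl genes (left) and 29 Mrps genes (right) over the 6 libraries, coloured by log2 CPM minus the gene's mean over the libraries, with genes ordered from the highest to the lowest difference between control replicate 2 and controls 1 and 3. The column of control replicate 2 is red in nearly every row (74 of 78 genes lie above their own mean), that of control replicate 3 mostly blue, and the 3 cKO columns pale.

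Summed over genes, the Mrpl transcripts reached 1151, 1475 and 1105 CPM in the controls and 1136, 1152 and 1159 CPM in the cKO libraries. The Mrps transcripts reached 642.6, 834.8 and 588.3 CPM in the controls and 628.2, 630.6 and 621.5 CPM in cKO. In each subunit the cKO sums therefore lay inside the control range, close to controls 1 and 3. The ratio of Mrps to Mrpl sums was 0.559, 0.566 and 0.532 in the controls and 0.553, 0.547 and 0.536 in the cKO libraries. Its mean was 0.552 ± 0.0177 in control and 0.546 ± 0.00869 in cKO (SD, n = 3), so the ratio differed between groups by less than the spread between the controls, and the groups overlapped.

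Control replicate 2 was the highest of the 6 libraries for 41 Mrpl and 25 Mrps genes, together 84.6% of the members, against 33.6% of all genes tested. Its log2 CPM exceeded the mean of controls 1 and 3 in 74 of 78 members, by a median of 0.41 in Mrpl and 0.47 in Mrps, whereas the median over all genes was 0.02. The members ranged from -0.18 (Mrpl1) to 1.04 (Mrpl54). The spread of the controls was accordingly wide: Mrpl28 varied with an SD of 14.1 CPM among controls and 1.76 CPM among cKO libraries.

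The large-subunit gene with the lowest p was Mrpl52, which encodes a protein of the mitochondrial large subunit without a bacterial counterpart (chr14:54426909-54429756, plus strand, GRCm38). It was at 18.4, 23.0 and 19.5 CPM in the controls and 12.4, 13.2 and 14.8 CPM in cKO. All cKO libraries were below all controls, and control replicate 2 was only moderately above the others. The log2 fold change was -0.59 (SE 0.143, adjusted p = 0.384 by the edgeR quasi-likelihood test, Benjamini-Hochberg adjusted). It was -0.49 without control replicate 2 (adjusted p = 0.124) and -0.44 after removal of length and GC trends (adjusted p = 0.164), and over all alternatives the adjusted p ran from 0.0548 to 1.0. Mrpl52 also had the highest level per transcript length of the members in control, 353 ± 22.1 TPM (SD, n = 3), against 270.0 ± 13.2 TPM in cKO.

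Mrpl23, whose bacterial counterpart lies beside the exit of the peptide tunnel, was at 19.4, 28.4 and 19.3 CPM in the controls and 16.3, 17.2 and 16.4 CPM in cKO. The groups did not overlap, and 1 control stood well above the other two. Its log2 fold change was -0.42 (SE 0.171) with all libraries and -0.21 without control replicate 2. Mrpl22, the counterpart of another protein of the tunnel wall, was at 12.2, 15.2 and 11.2 CPM against 10.9, 10.4 and 9.64 CPM, with a log2 fold change of -0.32 that became -0.19. Mrpl4, also a protein of the tunnel in bacteria, was at 19.3, 29.6 and 15.3 CPM against 21.9, 23.9 and 21.6 CPM. Its cKO values lay between those of controls 1 and 3 and that of control 2, and its log2 fold change was 0.07 with all libraries and 0.38 without control replicate 2.

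Mrpl18 and Mrpl30 were among the 6 Mrpl genes with the smallest p. Mrpl18, related to the bacterial protein that holds the 5S rRNA, had 41.5, 49.7 and 43.8 CPM in the controls and 39.3, 37.3 and 38.8 CPM in cKO (log2 fold change -0.23, SE 0.110). Mrpl30 had 44.6, 54.6 and 43.1 CPM against 42.0, 39.7 and 36.4 CPM (log2 fold change -0.27, SE 0.126). For both genes the groups did not overlap, and the fold changes without control replicate 2 were -0.15 and -0.16. Exons of Mrpl18 overlap those of Tcp1 on the opposite strand, and the strand setting of the counting is not given in the sources used here.

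Mrpl28 showed how far 1 library set a fold change. It was at 34.0, 55.5 and 28.9 CPM in the controls and 27.6, 31.1 and 28.9 CPM in cKO. Control replicate 2 was far above all other libraries, and control replicate 3 lay within the cKO range. The log2 fold change was -0.44 (SE 0.220) with all libraries, -0.24 after the length and GC correction, and -0.11 (SE 0.108) without control replicate 2.

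Mrpl12 and Mrpl54 changed sign with that library. Mrpl12, the stalk protein that recruits translation factors to the large subunit, was at 28.3, 47.5 and 23.0 CPM in the controls and 28.9, 29.1 and 28.4 CPM in cKO. The cKO values were nearly equal and sat just above controls 1 and 3, so the log2 fold change was -0.20 with all libraries and 0.16 without control replicate 2. Mrpl54 was at 4.20, 9.72 and 5.21 CPM against 4.83, 7.62 and 6.13 CPM, with a log2 fold change of -0.05 (SE 0.318) and of 0.40 (SE 0.228) without that library.

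In the large subunit 10 genes had fold changes above 0, none past the test, and the 3 with the largest values were Mrpl36, Mrpl49 and Mrpl1. Mrpl36, a very small protein with a bacterial counterpart, was at 12.7, 15.9 and 9.59 CPM in the controls and 15.7, 14.1 and 17.5 CPM in cKO. Its groups overlapped only through control replicate 2, and the log2 fold change was 0.30 (SE 0.194), or 0.49 (adjusted p = 0.242 by the edgeR quasi-likelihood test) without it. Its exons overlap those of Ndufs6 on the other strand. Mrpl49 was at 34.0, 36.5 and 33.0 CPM in the controls and 36.6, 42.9 and 40.2 CPM in cKO, the single member whose cKO libraries all lay above all controls, by a narrow margin (log2 fold change 0.21, SE 0.111, adjusted p = 0.796 by the same test). Mrpl49 in turn shares exon sequence with Syvn1 on the opposite strand. Mrpl1, which forms the other stalk of the large subunit, was at 17.2, 16.0 and 19.4 CPM against 19.38, 18.51 and 18.26 CPM. It was lowest in control replicate 2 and had a log2 fold change of 0.09.

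Mrpl58 is a peptidyl-tRNA hydrolase that releases stalled chains and is built into the large subunit. It was at 23.1, 30.3 and 19.3 CPM in the controls and 23.0, 20.4 and 22.7 CPM in cKO, where the cKO range lay within that of controls 1 and 3. Mrpl33, of higher level per length (166 ± 5.10 TPM in control and 163 ± 8.29 TPM in cKO), was at 12.5, 15.1 and 12.3 CPM against 10.5, 11.3 and 12.4 CPM. Its groups met at 12.3 and 12.4 CPM, and its log2 fold change was -0.22 (SE 0.149).

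**Figure D2:**
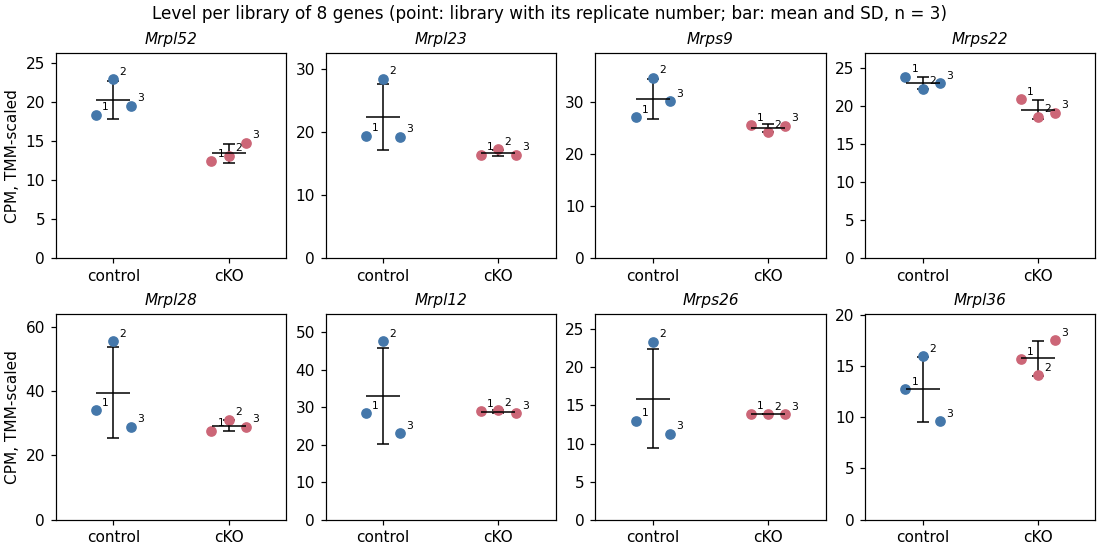
CPM per library (y axis, from 0) of 8 members in control (blue) and cKO (red), each point marked with its replicate number and bars giving mean and SD (n = 3). The cKO libraries of Mrpl52, Mrpl23, Mrps9 and Mrps22 all lie below the controls, Mrpl28, Mrpl12 and Mrps26 have 1 high control, replicate 2 (55.5, 47.5 and 23.4 CPM), and in Mrpl36 that control lies among the cKO libraries.

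In the small subunit the lowest p belonged to Mrps9, a protein of the head of the subunit with a bacterial counterpart. It was at 27.1, 34.7 and 30.2 CPM in the controls and 25.6, 24.2 and 25.5 CPM in cKO, so that the groups did not overlap. The log2 fold change was -0.29 (SE 0.127, adjusted p = 0.746 by the edgeR quasi-likelihood test, Benjamini-Hochberg adjusted), and -0.19 without control replicate 2. Mrps22, a protein found in the mitochondrial but not the bacterial subunit (chr9:98588730-98601660, minus strand, GRCm38), was at 23.8, 22.2 and 23.0 CPM against 20.86, 18.51 and 19.09 CPM. It was the small-subunit gene with the lowest relative level in control replicate 2, which was the lowest control, and its log2 fold change was -0.24 (SE 0.118) with all libraries and -0.26 without that library (adjusted p = 0.361 by the same test).

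Mrps12, Mrps24 and Mrps7 were among the most negative values of the small subunit. Mrps12, whose bacterial counterpart lies at the decoding centre, was at 12.3, 15.8 and 8.02 CPM in the controls and 9.843, 10.01 and 9.259 CPM in cKO. Controls 2 and 3 bracketed all cKO libraries, and its log2 fold change moved from -0.31 to -0.07 without control replicate 2. Mrps24 was at 16.7, 23.7 and 11.2 CPM against 13.5, 15.7 and 12.8 CPM, with a log2 fold change of -0.30 that became 0.001. Mrps7, a protein of the head, was at 24.2, 34.3 and 18.8 CPM against 20.2, 20.5 and 22.7 CPM, and its value moved from -0.29 to -0.03. In all 3 genes the lowest library of the 6 was control replicate 3. Exons of Mrps24 overlap those of Urgcp on the same strand, and how reads from shared exons, or from near-identical pseudogene copies, were divided is not given in the sources used here.

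Mrps26 and Mrps34, both without a bacterial counterpart, were among the 4 genes of this subunit whose fold change moved most without control replicate 2. Mrps26 was at 13.0, 23.4 and 11.3 CPM in the controls and 13.9, 13.8 and 13.9 CPM in cKO. The cKO libraries were almost identical and lay above controls 1 and 3, and the log2 fold change went from -0.20 to 0.19 without control replicate 2. Mrps34 was at 14.2, 24.0 and 11.7 CPM against 12.7, 17.5 and 14.6 CPM, and went from -0.16 to 0.20. Its exons overlap those of Nme3 on the same strand and Mapk8ip3 on the other. Mrps21, second in level per length with 271 ± 51.0 TPM in control and 277 ± 18.9 TPM in cKO, was at 22.8, 32.8 and 17.3 CPM against 22.5, 20.5 and 21.1 CPM, and its log2 fold change of -0.19 became 0.09.

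Mrps5, with 127 ± 7.24 TPM in control and a bacterial counterpart near the mRNA entry, was at 66.0, 70.6 and 66.0 CPM in the controls and 57.6, 65.0 and 65.4 CPM in cKO. All cKO values were below all controls by a small margin, and the log2 fold change was -0.11 (SE 0.104). Mrps11, at 16.8, 21.8 and 15.3 CPM against 13.4, 16.2 and 15.2 CPM, had a log2 fold change of -0.27 (SE 0.165) and shares exon sequence with Mrpl46, which lies on the opposite strand, so that a large- and a small-subunit gene overlap there.

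The values above 0 in the small subunit belonged to 4 genes. Mrps28 was at 4.70, 6.50 and 3.36 CPM in the controls and 4.64, 5.98 and 5.68 CPM in cKO (log2 fold change 0.16, SE 0.252), and its groups overlapped. Mrps17 was at 40.56, 44.97 and 39.05 CPM against 47.9, 46.8 and 42.9 CPM (0.14, SE 0.109), where only control replicate 2 reached into the cKO range. Mrps2 was at 31.5, 33.7 and 28.6 CPM against 32.9, 32.0 and 33.1 CPM (0.06, SE 0.111). Mrps14, not chosen by the rule for named genes, was the fourth with 0.03.

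Symbols do not always give the place in the ribosome. The bacterial protein bS18 has 3 mitochondrial relatives, of which Mrps18b and Mrps18c sit in the small and Mrps18a in the large subunit. Mrps18a was at 18.8, 29.2 and 15.3 CPM in the controls and 17.9, 18.1 and 16.9 CPM in cKO (log2 fold change -0.26, and 0.04 without control replicate 2). Mrps18b was at 11.8, 16.2 and 10.1 CPM against 11.5, 11.9 and 9.96 CPM (-0.19 and 0.02). Mrps18c was at 17.6, 21.7 and 16.0 CPM against 14.2, 15.3 and 16.8 CPM (-0.26 and -0.12). In all 3 relatives control replicate 2 was the highest library and the groups overlapped.

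Mrps30, likewise a protein of the large subunit in spite of its symbol, was at 19.3, 25.6 and 20.4 CPM in the controls and 18.9, 19.2 and 19.2 CPM in cKO. All cKO libraries were below all controls, by 0.19 on the fitted log2 scale with all libraries and 0.06 without control replicate 2. Mrps36 is now known as a component of the 2-oxoglutarate dehydrogenase complex rather than of the ribosome, and it was at 10.2, 13.1 and 11.7 CPM against 11.9, 10.3 and 11.9 CPM (log2 fold change -0.03, SE 0.154). With Mrps18a and Mrps30 counted as large-subunit genes and Mrps36 left out, the medians were -0.12 for 51 large-subunit and -0.17 for 26 small-subunit genes, against -0.10 and -0.18 by symbol.

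The members were also split by descent from the bacterial ribosome, with only Mrps18c of the bS18 relatives counted as a counterpart, and Mrps18a, Mrps18b and Mrps36 counted among the genes without one. The 44 genes with a bacterial counterpart had a median log2 fold change of -0.14 with 36 below 0, and the 34 without one had -0.13 with 28 below 0. Without control replicate 2 the medians were 0.02 and 0.04.

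**Figure D3:**
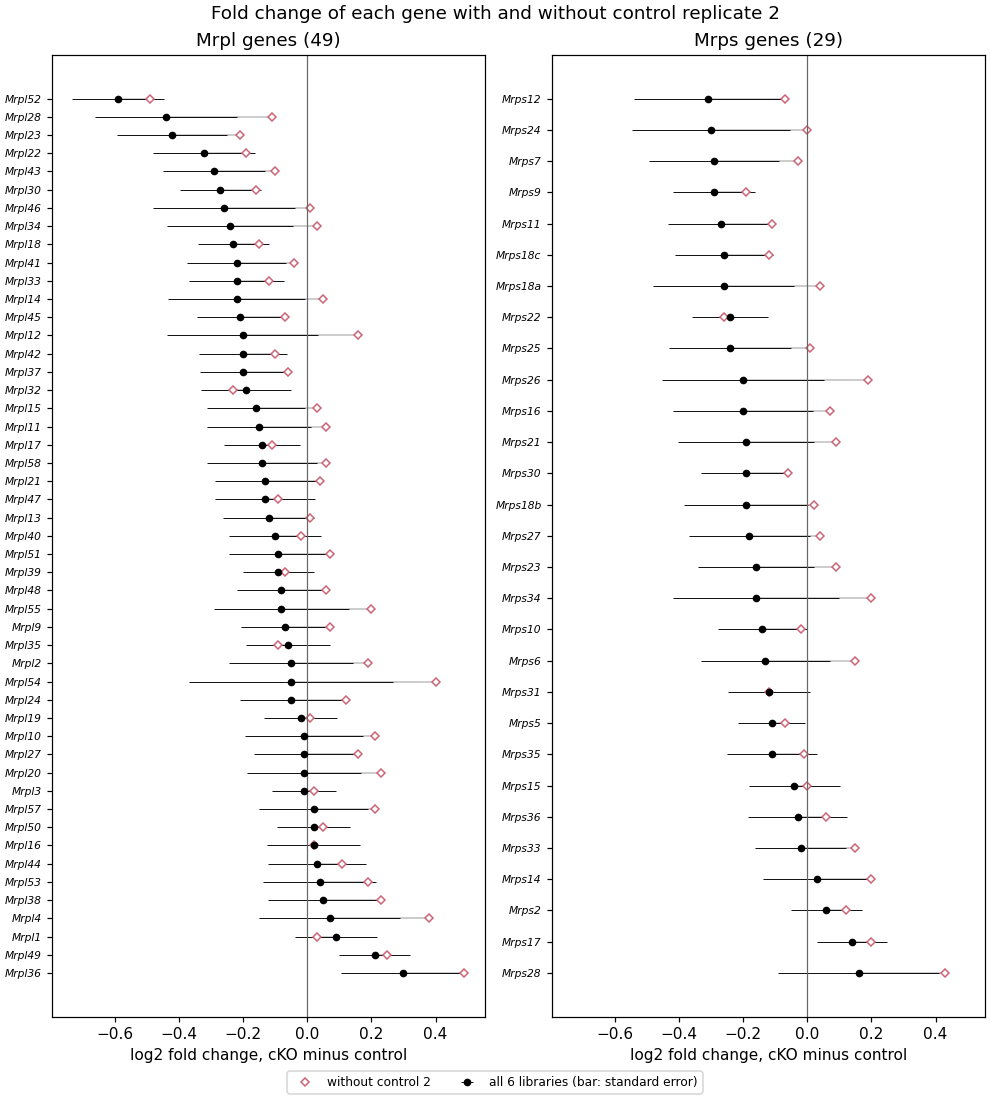
Log2 fold change (x axis, cKO minus control) of each Mrpl (left) and Mrps gene (right) from all 6 libraries (filled circles, bar for the standard error) and from the 5 libraries without control replicate 2 (open diamonds). Most diamonds lie to the right of their circle, and 49 of the 78 are above 0, against 14 of the circles.

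Left without control replicate 2, the comparison of 2 controls with 3 cKO libraries again called 0 members, while 122 of 13687 genes, or 0.891%, were called at an adjusted p under 0.05. Now 29 members had a fold change below 0, against 48.9% of all genes tested. At an unadjusted p under 0.05, 2 members were lower (Mrpl52 and Mrps22) and 5 higher (Mrpl36, Mrpl4, Mrpl49, Mrpl20 and Mrps17), where the shares over all genes were 6.55% and 5.51%. Of these, Mrpl20 was named after its values were seen. The groups did not overlap for 11 members with cKO lower and for 16 with cKO higher, and for 14.9% and 15% of all genes. The fold changes ranged from -0.49 (Mrpl52) to 0.49 (Mrpl36).

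The excess of control replicate 2 went along with the base composition of the transcripts. Across the 78 members, its log2 difference from controls 1 and 3 had a Pearson correlation of 0.61 (Spearman 0.63) with the GC content of the longest transcript, and of -0.42 (Spearman -0.42) with log2 transcript length. Over 13318 genes tested the same correlations were 0.51 (0.53) and -0.58 (-0.62). These are descriptions across genes that share the same libraries and are no independent replicates. The 20 members with less than 45% GC had a median excess of 0.28, the 29 with 45 to 52% had 0.37 and the 29 with 52% or more had 0.66. The members' longest transcripts were short, with a median of 1866 bases against 3555 for all genes tested. Their median GC content was 49.8% against 49.7%. The longest transcript need not be the one that was counted. Mrpl13, with 6008 bases, had 26.6 CPM and 116 TPM in control. Mrpl45, with only 2431 bases, had 37.2 CPM and 36.7 TPM, although TPM is scaled for transcript length.

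**Figure D4:**
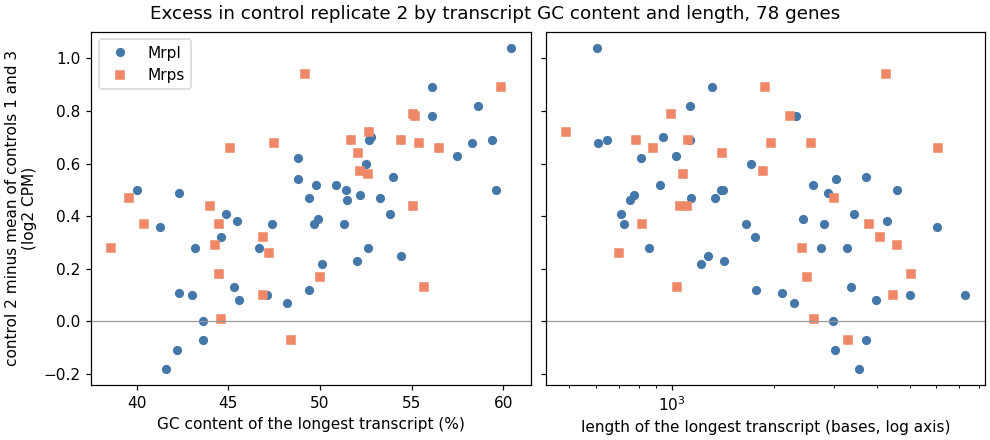
Log2 CPM of control replicate 2 minus the mean of controls 1 and 3 (y axis) for the 49 Mrpl genes (circles) and 29 Mrps genes (squares), against the GC percentage of the longest transcript (left) and its length in bases on a log axis (right). The difference is above 0 in 74 genes and is larger where GC content is high (Pearson 0.61) and the transcript short (Pearson -0.42).

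After a smooth trend on length and GC content was taken out of each library, the median excess of control replicate 2 over the members fell to 0.22, with 0.19 in Mrpl and 0.27 in Mrps. Across the 78 members the corrected excess still varied with both properties, now in the opposite direction, with Pearson correlations of -0.43 with GC content and 0.65 with log2 length, whereas over all genes tested both were 0.0. The median log2 fold changes were then -0.07 in Mrpl and -0.11 in Mrps. Below 0 lay 51 of 78 members, against 7035 of 13570 genes tested. Of all genes 153, or 1.13%, passed an adjusted p of 0.05 in that fit, with 0 members among them. At an unadjusted p under 0.05, 6 members were lower (Mrpl52, Mrpl23, Mrps22, Mrpl28, Mrpl30 and Mrps9) and 2 higher (Mrpl36 and Mrpl49), against 7.2% and 5.31% of all genes. The correction used the longest annotated transcript of each gene, so it can be off for members counted mainly on a shorter one. The part of length and GC content in the members' values was not tested beyond this correction.

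The cytosolic ribosomal protein genes, which make the ribosome of the cytoplasm, were measured in the same libraries. All 77 tested were below 0 in cKO, with a median log2 fold change of -0.59 and 2 called, against 0.0737% of all genes tested. Without control replicate 2 all 77 were still below 0, with a median of -0.35 and 23 called, against 0.891%. After the length and GC correction all 77 were below 0, with a median of -0.46 and 32 called, against 1.13%. Their median deviations were 0.15, 0.70 and 0.01 in the controls and -0.30, -0.31 and -0.23 in cKO, so every control median was above every cKO median. The 79 nuclear-encoded respiratory chain subunits tested, the partners of the proteins that mitochondrial ribosomes make, had 72 genes below 0, a median of -0.14 and 0 called. Their medians by library were -0.05, 0.45 and -0.22 in the controls and -0.07, -0.05 and -0.03 in cKO, the same order of controls as in Mrpl and Mrps. Without control replicate 2 their median was 0.08, with 19 genes below 0 and 2 called. After the length and GC correction it was -0.031, with 46 genes below 0 and 2 called. The difference between the mitochondrial and cytosolic sets was not tested as such.

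**Figure D5:**
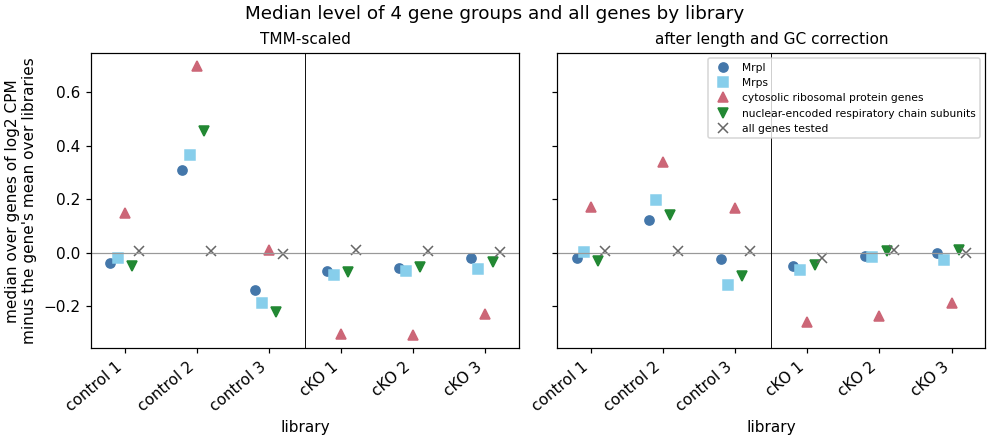
Median over genes of log2 CPM minus each gene's mean over the 6 libraries (y axis) for Mrpl, Mrps, cytosolic ribosomal protein and respiratory chain genes and all genes tested, before (left) and after (right) the length and GC correction. Control replicate 2 is the highest library in the 4 groups (0.31, 0.37, 0.70 and 0.45 at left), and only in the cytosolic ribosomal protein genes do controls 1 and 3 also lie above all cKO libraries in both panels.

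The other genes of mitochondrial gene expression held no call either. The 5 proteins of the mitochondrial ribosome that carry other symbols (Dap3, Ptcd3, Chchd1, Aurkaip1 and Gadd45gip1) had a median log2 fold change of -0.05 with 3 below 0. The 11 translation factors tested, such as Tufm, which delivers aminoacyl-tRNA, had a median of 0.07 with 5 below 0, and the 24 assembly and rRNA modification factors had -0.03 with 14 below 0. The 13 genes of mitochondrial transcription and mRNA handling had -0.05 with 11 below 0, and the 10 regulators, Nrf1, Gabpa and Yy1 among them, had -0.05 with 6 below 0. At an unadjusted p under 0.05, 2 of these 63 genes were found, both lower in cKO, where 3.49% of all genes tested were lower and 3.14% higher at that level.

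These were Oxa1l and Slirp. Oxa1l, the insertase that receives new chains from the mitochondrial ribosome at the inner membrane, was at 59.7, 66.3 and 51.0 CPM in the controls and 48.3, 45.7 and 43.8 CPM in cKO, with no overlap. Its log2 fold change was -0.36 (SE 0.123, adjusted p = 0.588 by the edgeR quasi-likelihood test, Benjamini-Hochberg adjusted) and -0.27 without control replicate 2. Slirp, which with Lrpprc stabilises mitochondrial mRNAs, was at 14.5, 17.3 and 15.6 CPM against 13.7, 10.5 and 12.3 CPM, again without overlap (log2 fold change -0.38, SE 0.151, adjusted p = 0.687 by the same test). Pnpt1, a polynucleotide phosphorylase of mitochondria, had the next smallest p and was higher in every cKO library than in any control, at 25.7, 28.3 and 32.4 CPM against 36.3, 34.3 and 33.1 CPM (log2 fold change 0.26, SE 0.123, adjusted p = 0.777 by the same test).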

How the data were processed

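RNA of 6 E18.5 cortices (3 control, 3 cKO) was sequenced by the authors, who deposited 1 table that gives each gene's estimated count, TPM and FPKM in every library. The deposited estimated counts had no normalization, and the TPM values deposited by the authors are scaled for transcript length. The submitters' processing notes name HISAT2 2.2.1, Bowtie2 2.4.5, RSEM 1.3.1 and GRCm38 (mm10), while annotation and strand setting are not given in the sources used here. The 6 FPKM columns and the authors' comparison columns (averages, fold changes and p-values) were not used. Libraries were grouped by the submitters' labels.

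Estimated counts (89.4% of them whole within 1e-09) were rounded, filtered with filterByExpr, scaled by TMM and tested by quasi-likelihood in edgeR 4.0.16 (R 4.3.3), with p-values adjusted by Benjamini-Hochberg over 13570 genes. Totals were 15091951 to 16885451 per library, and the common biological coefficient of variation was 0.147. Medians over members are descriptions without a test. Positions, overlaps, and the length and GC content of the longest transcript were taken from GENCODE M21. Length and GC were found for 96.7% of genes and all 78 members. The correction on length and GC used mgcv 1.9.3. TPM served for levels, and as log2(TPM + 1) for an alternative. Python 3.11.15 and matplotlib 3.10.9 made the figures. The methods were tested on simulated data.

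Members, lists and tests were chosen with earlier results of these data known. Genes were named by a rule: in each subunit the 6 smallest p, 3 highest control TPM, 3 largest rises and the 4 most moved without control replicate 2, 8 members with particular roles, and the related genes with an unadjusted p under 0.05 or, if fewer than 3, the 3 smallest p. Promoter genes were chosen after their values were seen. Alternatives were DESeq2 1.42.0, size factors by RLE, a block on replicate number, no filter, a filter on CPM above 1 in 2 libraries, TMM factors without ribosomal and translation genes, the length and GC correction (also with the block), log2 TPM, a threshold of 0.1 and each library left out. The length and GC correction without control replicate 2 was added after seeing the data. No replicates were duplicates (chi-square per degree of freedom 3.52 to 65.4). Control replicate 2 gave 41.5 with control 1 and 65.4 with control 3, while controls 1 and 3 gave 10.5. Genes encoded in mitochondrial DNA were not analysed here.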

Additional observations from a re-analysis of the deposited data

How the results depend on the processing

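No member was called under any alternative. Of the 6 libraries left out in turn, control replicate 2 moved the Mrpl and Mrps medians most. Over the libraries left out in turn, the Mrpl median ran from -0.188 to 0.027 and the Mrps median from -0.277 to 0.024, members below 0 from 29 to 71, members with an unadjusted p under 0.05 from 1 to 10, and calls over all genes from 8 to 122, each positive median and the 29 and 122 being without control replicate 2 and the 10 without control replicate 3. Left-out fits keep 2 libraries in 1 group. Without control replicate 2 and with the length and GC correction the medians were 0.011 (Mrpl) and 0.001 (Mrps), with 35 members below 0, 7 at an unadjusted p under 0.05 and 234 calls. On log2(TPM + 1) the medians were 0.055 and 0.034, where the median of all genes was shifted by 0.141, so that both lay below it. Calls over all genes were 99 with DESeq2, 18 at an adjusted p under 0.1, and 153 with the length and GC correction or 159 with the block added, with 8 and 10 members at an unadjusted p under 0.05. Of all genes tested, 7.2% were lower and 5.31% higher at that level with the correction, and 6.55% and 5.51% without control replicate 2. For the other fits of this paragraph that share was not taken, so their member counts are not read as a result. The cause of the shifts between fits was not tested.

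Same-numbered libraries correlated in their deviations by 0.0884, 0.0615 and 0.23, so the numbers were not taken as pairs. With the replicate block, 11 genes and 0 members were called, and the medians were -0.099 and -0.134. RLE size factors, the other filters and TMM factors without ribosomal genes turned no named gene. The sign turned for Mrpl54 with the block (0.01), the correction (0.23), both (0.24), and the correction without control replicate 2 (0.31). For Mrps21 the last 3 gave 0.0546, 0.059 and 0.0893, and for Mrps36 0.0889, 0.0887 and 0.0424. The correction without control replicate 2 also turned Mrpl12 (0.11), Mrpl58 (0.0334), Mrps18b (0.0015), Mrps26 (0.18) and Mrps34 (0.12). With each library left out, the log2 fold change ran from -0.12 to 0.38 in Mrpl4, -0.40 to 0.16 in Mrpl12, -0.28 to 0.40 in Mrpl54, -0.28 to 0.0558 in Mrpl58, -0.45 to 0.0438 in Mrps18a, -0.33 to 0.0243 in Mrps18b, -0.38 to 0.0928 in Mrps21, -0.53 to 0.001 in Mrps24, -0.39 to 0.19 in Mrps26, -0.0457 to 0.43 in Mrps28, -0.36 to 0.20 in Mrps34 and -0.12 to 0.0619 in Mrps36. In the fit with all libraries the standard errors (median 0.157) exceed most members' fold changes in size, so changes of this size could not be detected gene by gene there.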
